A study of Mus musculus with 6 samples.

Results

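*Mcam* and *Cspg4*, genes that encode pericyte surface proteins, were followed in RNA sequencing libraries of C57BL/6 mice, an inbred laboratory strain. They were taken by gene symbol from a table of 312 genes, of which they are 2 (*Mcam*, gene ID 84004, and *Cspg4*, gene ID 121021). The table holds 3 libraries taken on postnatal day 6 (P6) and 3 taken on postnatal day 56 (P56), and no treatment or gene alteration is given for either age. The sample labels call the material adipose tissue macrophages (ATMs), the phagocytes that reside in fat, whereas the study's methods name inguinal adipose tissue (iAT) depots as the source. None of the 15 macrophage markers looked for, such as *Adgre1* and *Csf1r*, and none of the 12 adipocyte markers was among the 312 genes, so neither description could be checked here. Nothing says that each library came from its own animal, so p-values measure the spread between these libraries, which may be technical. The 312 genes are labelled as differentially expressed and carry the authors' own comparison of the ages. They may therefore have been chosen on this same comparison, though the rule is not stated. The p-values and the shares of genes called below describe this list only, not all genes of the libraries.

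Pericytes wrap the outside of capillaries and small venules, where they share a basement membrane with the endothelium, stabilise the vessel and can give rise to other mesenchymal cells. In fat, cells of the vessel wall have been described as a source of adipocyte progenitors. MCAM (CD146) is an adhesion receptor of the immunoglobulin superfamily that spans the membrane a single time, binds laminin and is carried by pericytes, smooth muscle cells and endothelium. CSPG4 (NG2) is a large transmembrane chondroitin sulfate proteoglycan that binds type VI collagen and is carried by pericytes, and outside the vessel wall by glial and cartilage precursors. Neither gene is therefore a marker of a single cell type. Of 30 pericyte markers looked for, 4 were among the listed genes, *Mcam*, *Cspg4*, *S1pr3* and *Rgs4*. The defining markers *Pdgfrb*, *Rgs5*, *Kcnj8*, *Abcc9* and *Notch3* were looked for and were not among the listed genes. In libraries of mixed cells, fewer cells of a type and less RNA per cell cannot be told apart.

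The bases just before each gene's start are shown because they are where the genes' control regions can be compared. They come from RefSeq's annotation of GRCm38.p6 and cover the 250 bases before the start of *Mcam* (chr9:44134408-44134657, plus strand) and of *Cspg4* (chr9:56864854-56865103, plus strand). Capitals mark the cAMP response element (CRE, TGACGTCA) and the GC box (GGGCGG, or CCGCCC where it lies on the other strand).
Mcam: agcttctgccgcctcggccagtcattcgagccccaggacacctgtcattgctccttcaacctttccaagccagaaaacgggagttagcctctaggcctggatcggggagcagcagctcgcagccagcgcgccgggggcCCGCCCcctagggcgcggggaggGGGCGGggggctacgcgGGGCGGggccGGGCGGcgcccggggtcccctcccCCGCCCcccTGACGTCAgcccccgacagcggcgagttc
Cspg4: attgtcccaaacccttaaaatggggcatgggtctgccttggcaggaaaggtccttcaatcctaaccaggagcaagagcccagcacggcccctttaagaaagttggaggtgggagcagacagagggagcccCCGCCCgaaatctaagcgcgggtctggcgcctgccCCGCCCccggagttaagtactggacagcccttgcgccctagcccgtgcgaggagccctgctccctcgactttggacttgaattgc

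The *Mcam* window held 5 GC boxes and 1 CRE, which lay between 29 and 22 bases before the start, and the *Cspg4* window held 2 GC boxes and no CRE. A GC box was present in 32.7% and a CRE in 1.55% of 32851 windows of the same length and position over all annotated genes. Among 322 windows of 245 listed genes, the set from which the members come, these shares were higher, 62.1% for the GC box and 3.42% for the CRE. The *Mcam* window also held 1 AP-2 motif (GCCNNNGGC, in 13.7% of all windows and 24.8% of those of listed genes) and 1 E box (CANNTG, in 66.2% and 56.5%), and the *Cspg4* window held neither. Neither window held a TATA box (TATAAA), a CArG box, an RBPJ motif (TGGGAA) or an MCAT motif (CATTCC), which were present in 12.4%, 1.47%, 21.6% and 12.6% of all windows. Both strands were searched and no matches overlapped. The G and C content was 73.6% in the *Mcam* window and 60.4% in the *Cspg4* window, against a median of 52.4%. These matches describe letters only, and no binding was measured.

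Since the table holds a selected part of each library, depth was computed as the median of count divided by FPKM (fragments per kilobase and depth unit) over 196 genes. It was between 1.09 and 1.16 at P6 and between 0.796 and 0.938 at P56, relative to the mean of the libraries. The listed genes held between 497044 and 816309 estimated counts per library. P56 replicate 3 stood apart: its chi-square per gene at equal depth was 44.95 against replicate 1 and 22.8 against replicate 2, whereas it was between 8.55 and 9.80 for the other pairs of libraries of the same age. The differences between the ages of *Mcam* and *Cspg4* are therefore also given without this library. No library pair agreed within sampling noise, for which this value would lie near 1.

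*Mcam* was about 2 times as abundant at P6 as at P56. Its level per transcript length was 226, 204 and 213 TPM (a transcript share scaled for length and depth) in P6 replicates 1 to 3 and 106, 112 and 128 TPM in P56 replicates 1 to 3. The P6 libraries all lay above the P56 libraries, as the plot of both genes by library shows. The mean was 214 ± 11.3 TPM at P6 (SD, n = 3) and 115 ± 11.6 TPM at P56 (SD, n = 3). The log2 difference (P6 minus P56) in edgeR at the recovered depth was 1.01, with a standard error between libraries of 0.12. It was 1.13 without P56 replicate 3. Both genes were singled out on this comparison of the ages, so these values are a description and carry no test. Of all 310 tested genes, 27.1% had TPM values that were higher at P6 without overlap, 37.7% lower and 64.8% either, and 30 had a larger log2 difference than *Mcam*.

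**Figure D1:**
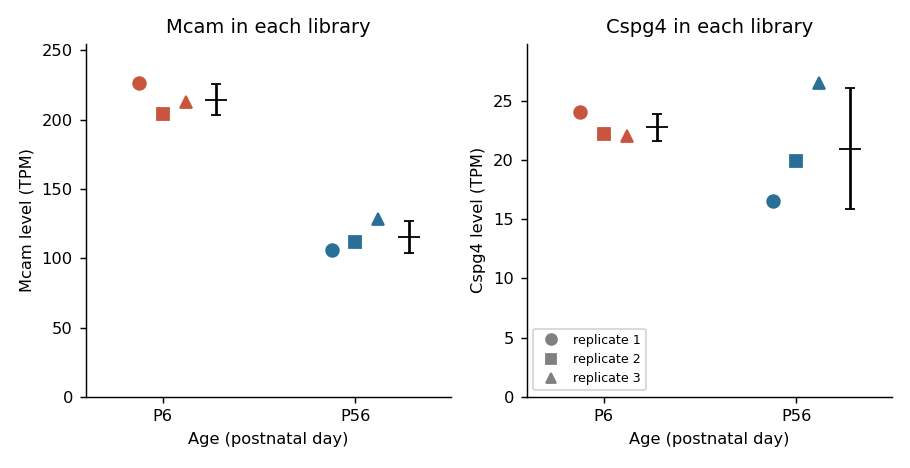
Level of *Mcam* (left) and *Cspg4* (right) in TPM in each of the 3 libraries per age, with symbols for the replicate and the black bar for the mean and SD. *Mcam* is between 204 and 226 TPM at P6 and between 106 and 128 TPM at P56, while the *Cspg4* values of the ages overlap because P56 replicate 3 is the highest of the 6 libraries.

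*Cspg4* was at a similar level at both ages, with a wide spread at P56. It reached 24.1, 22.2 and 22.0 TPM in P6 replicates 1 to 3 and 16.5, 19.9 and 26.5 TPM in P56 replicates 1 to 3. P56 replicate 3 was above, and the other P56 libraries were below, every P6 library, so the ages overlapped. The mean was 22.8 ± 1.12 TPM at P6 (SD, n = 3) and 21.0 ± 5.08 TPM at P56 (SD, n = 3). The log2 difference in edgeR at the recovered depth was 0.23, which is about the size of its standard error between libraries, 0.23. Without P56 replicate 3, the log2 difference was 0.48 and the ages no longer overlapped, with a P56 mean of 18.2 TPM. Without P56 replicate 1, the log2 difference was 0.07. With all libraries, the TPM values of 64.8% of all tested genes did not overlap between the ages. That share was not computed without P56 replicate 3. Of the tested genes, 104 had a larger log2 difference than *Cspg4*.

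The counts behind these levels were high enough that counting error was small. *Mcam* had 5304, 4678 and 5296 counts at P6 and 1866, 1896 and 2071 at P56, and the exact Poisson 95% interval reached at most 4.56% to either side. *Cspg4* had 1601, 1446 and 1558 counts at P6 and 827, 958 and 1215 at P56, with an interval of at most 6.88% to either side. These intervals cover counting error only. At the recovered depth, the coefficient of variation (the SD as a percent of the mean) between P6 libraries was 4.70% for *Mcam* and 3.78% for *Cspg4*, beside a median of 6.27% over all tested genes. Between P56 libraries it was 14.3% for *Mcam* and 28.5% for *Cspg4*, beside a median of 10.5%. The spread of *Cspg4* at P56 was wider than that of 95.8% of the tested genes. Without P56 replicate 3, the coefficient fell to 14.2% for *Cspg4* and 4.96% for *Mcam*, beside a median of 5.26%, in a comparison that was chosen after seeing the data. Counting error alone would give *Cspg4* a coefficient of 3.16% at P56 and 2.55% at P6.

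The ages differed in depth, so the size of the difference depended on the scale. Raw counts gave a P6 to P56 ratio of 2.62 for *Mcam* and 1.54 for *Cspg4*. The raw counts of *Cspg4* did not overlap between the ages, but raw counts carry the greater depth of every P6 library. The share of all tested genes without overlap in raw counts was not computed. In FPKM, which removes library depth, the ratios were 2.01 and 1.17. In TPM they were 1.86 and 1.09, because the factor from FPKM to TPM, which is common to the genes of a library, was between 1.99 and 2.05 at P6 and between 2.10 and 2.27 at P56. Relative to the median log2 difference of all tested genes, which was −0.02 at the recovered depth, 0.34 with equal library sizes and −0.14 with limma on log2(TPM + 1), both genes moved little between scales. That relative difference was 1.04, 1.05 and 1.03 for *Mcam* and 0.26, 0.28 and 0.28 for *Cspg4*. Over all settings and left-out libraries it was between 0.93 and 1.21 for *Mcam* and between 0.07 and 0.56 for *Cspg4*.

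**Figure D2:**
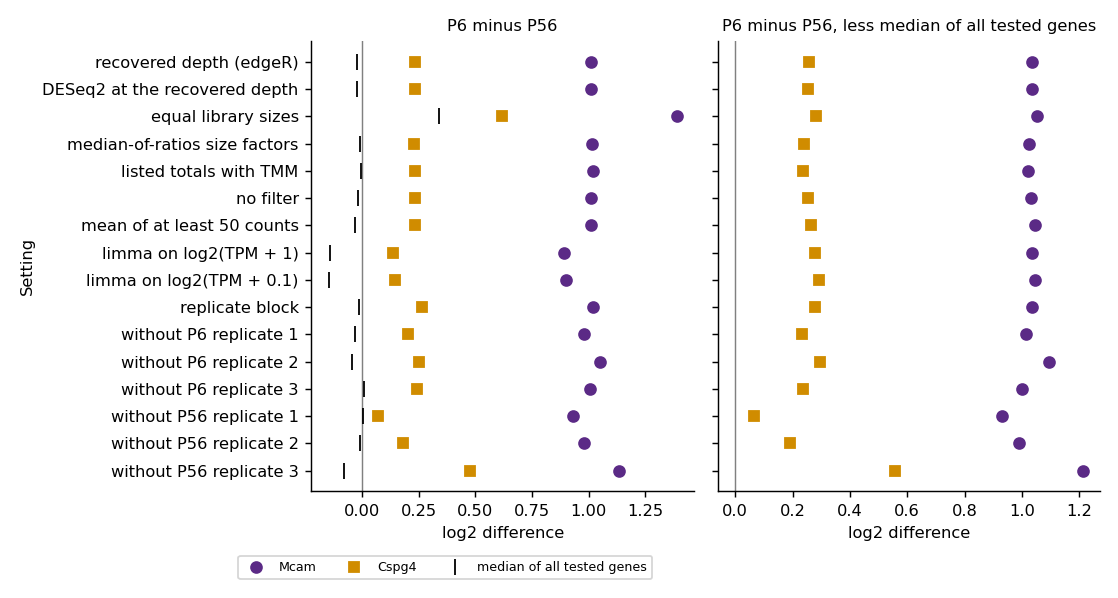
Log2 difference (P6 minus P56) of *Mcam* and *Cspg4* under each of 16 settings, as fitted (left, with the median of all tested genes as a tick) and less that median (right). *Mcam* stays between 0.93 and 1.21 above the median, while *Cspg4* ranges from 0.07 without P56 replicate 1 to 0.56 without P56 replicate 3.

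The ratio of the genes within a library cancels its depth. *Cspg4* was at 10.6%, 10.9% and 10.4% of the *Mcam* level in TPM in P6 replicates 1 to 3, and at 15.6%, 17.8% and 20.7% in P56 replicates 1 to 3. The P6 values lay close together and all below the P56 values. The mean was 10.6% ± 0.264 at P6 (SD, n = 3) and 18.0% ± 2.54 at P56 (SD, n = 3), a ratio of 1.70 between the ages, and 1.57 without P56 replicate 3. In other words, *Mcam* exceeded *Cspg4* per transcript length 9.41 times at P6 and 5.61 times at P56. The log2 difference of this ratio was −0.75 in TPM and in FPKM, and with each library left out in turn it was between −0.85 and −0.65. As both genes were chosen on the same comparison, no test is given.

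**Figure D3:**
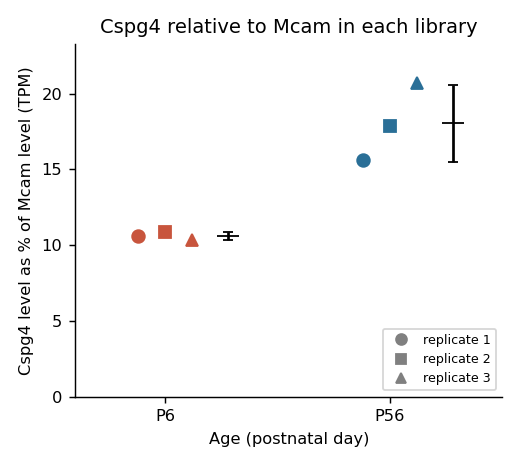
Level of *Cspg4* as a percent of the level of *Mcam*, both in TPM, in each of the 3 libraries per age, with symbols for the replicate and the black bar for the mean and SD. The P6 libraries lie between 10.4% and 10.9% and the P56 libraries between 15.6% and 20.7%.

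Within an age the genes tended to deviate in the same direction. Each library was set against the mean of the others of its age, on the log2 scale at the recovered depth. In P56 replicate 3, *Mcam* was 0.34 and *Cspg4* 0.65 above the other P56 libraries, whereas the median of all tested genes was −0.18. Only 4 of the 310 tested genes, *Smoc1*, *Grhl1*, *Aldh1a7* and *Lrrc39* (named here after their values were seen), deviated upward more than *Cspg4* in this library, and 14 more than *Mcam*. In P56 replicate 1, *Mcam* was at −0.24 and *Cspg4* at −0.54, beside a median of 0.15. Their deviations had the same sign in 5 of the 6 libraries, the exception being P6 replicate 3, where they were 0.02 and −0.03. The deviations within an age depend on each other, so the 6 libraries are not independent agreements. How often other pairs of genes agree in sign was not computed. The low depth of P56 replicate 3 and its distance from the other libraries move with the high *Cspg4* value, and their part in it was not tested.

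**Figure D4:**
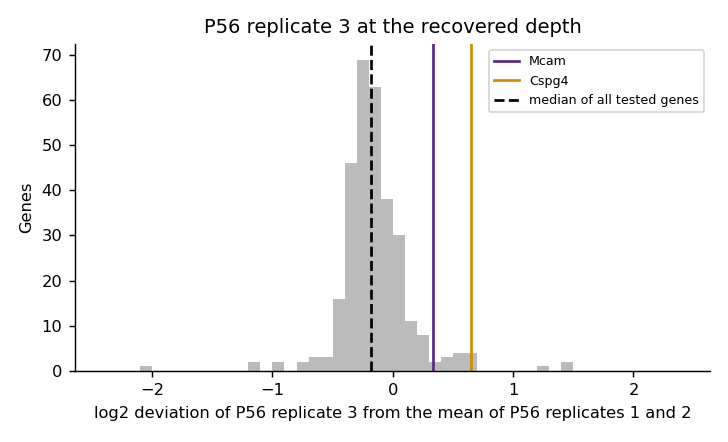
Number of tested genes by the log2 deviation of P56 replicate 3 from the mean of P56 replicates 1 and 2 at the recovered depth. The dashed line is the median of all 310 genes at −0.18, and the coloured lines are *Mcam* at 0.34 and *Cspg4* at 0.65, both to the right of most genes.

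Among the listed genes, *Mcam* ranked 19, 21 and 19 by TPM at P6, against 54, 51 and 42 at P56. *Cspg4* ranked between 139 and 148 at P6 and between 127 and 193 at P56. *Mcam* was thus in the upper part of the list at both ages, and *Cspg4* near its middle.

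The ratio of count to FPKM of a gene, taken relative to other genes of the library, follows the transcript length that the quantification used, and it does not use the level on which the genes were chosen. Calibrated on 20 listed genes that have a single transcript in GENCODE's annotation of GRCm38 (release M21), it corresponded to 2876 ± 0.895 bases for *Mcam* at P6 (SD, n = 3) and 2877 ± 1.28 bases at P56 (SD, n = 3). This lies between the longer annotated coding transcripts of *Mcam*, of 2772 and 2989 bases. For *Cspg4* it corresponded to 8165 ± 4.72 bases at P6 and 8160 ± 7.69 bases at P56, beside 8121 bases for its only annotated coding transcript. Relative to the median of 196 genes, the index was 0.142% higher at P6 for *Mcam* and 0.239% higher for *Cspg4*, beside a median change of 0.269% in size over these genes. All P6 values were above all P56 values, and the exact permutation p was 0.1 for each gene (two-sided, n = 3 per age), and 0.1 after Benjamini-Hochberg adjustment over both, which is the smallest that 3 against 3 libraries allow. The sign depended on the genes that set the reference: with genes above an FPKM of 20 it was −0.116% for *Mcam* and −0.0188% for *Cspg4*, and with genes above an FPKM of 1 it was 2.26% and 2.36%. As size and sign moved with the reference, no shift in transcript form between the ages can be read from these values.

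The other pericyte genes of the list behaved differently from each other. *S1pr3*, which encodes a receptor for sphingosine 1-phosphate on mural cells, was at 64.7, 69.0 and 67.4 TPM at P6 and at 33.8, 33.3 and 28.1 TPM at P56. It was higher at P6 by a log2 difference of 1.20, and by 1.15 without P56 replicate 3. With all libraries, the adjusted *p* was 5.59e-07 in the quasi-likelihood test of edgeR (n = 3 per age), corrected by Benjamini-Hochberg over all 310 genes. *Rgs4*, a regulator of G protein signalling, was at 51.3, 50.9 and 50.0 TPM at P6 and at 54.2, 50.4 and 48.6 TPM at P56, and did not pass the test (log2 difference 0.11 with and without P56 replicate 3, adjusted *p* = 0.250 from edgeR). So 1 of these 2 genes was called, where 63.9% of all tested genes were called in either direction, 30.3% higher and 33.5% lower at P6. Unlike *Mcam* and *Cspg4*, *S1pr3* was lowest in P56 replicate 3. Its log2 deviation from the other P56 libraries was −0.16, near the median of −0.18 over all tested genes.

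Contractile genes of smooth muscle, the neighbours of pericytes in the vessel wall, went both ways. Of 20 such genes looked for, 8 were listed and tested, of which 4 were higher, 1 was lower and 3 did not pass the test. These 5 calls of 8 are near the 63.9% called among all tested genes, of which 30.3% were higher and 33.5% lower. Their median log2 difference was 0.32, beside −0.02 over all tested genes. *Cnn1* (calponin 1) was higher at P6 by 2.04 (adjusted *p* = 7.80e-06 from edgeR). *Acta2* (smooth muscle actin) was higher at P6 by 0.84 (adjusted *p* = 0.000341 from edgeR). *Myl9* (myosin regulatory light chain) and *Tagln* (transgelin) were higher at P6 by 0.61 and 0.40, and *Tpm2* (tropomyosin) was lower at P6 by 0.30. *Smtn*, *Flna* and *Lmod1* had log2 differences of 0.16, 0.23 and −0.22. *Smtn* and *Flna* passed the test under 5 and 6 of 15 alternatives. The calls of *Tagln* and *Tpm2* were lost under 4 and 6 of 15 alternatives, and the direction of *Tpm2* turned with equal library sizes (0.0758). The summed level of the 8 genes was 1816 ± 299 TPM at P6 and 1421 ± 106 TPM at P56 (SD, n = 3).

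Set against this sum, *Mcam* was higher at P6 and *Cspg4* was not. These ratios use the values on which both genes were chosen, so they are a description and carry no test. How many other genes would not overlap on this scale was not computed. Per 1000 TPM of the 8 contractile genes, *Mcam* was at 105, 129 and 124 TPM at P6 and at 69.0, 84.7 and 90.6 TPM at P56, which did not overlap with or without P56 replicate 3. *Cspg4* was at 11.2, 14.1 and 12.8 TPM at P6 and at 10.8, 15.1 and 18.7 TPM at P56, so that the P56 values enclosed those of P6, also without P56 replicate 3.

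Extracellular partners of the members were represented by few genes. Of 21 ligands and partners of *Mcam* looked for, the laminin chain genes *Lama5* and *Lamb2* were listed. *Lamb2* was lower, at 128, 119.6 and 117 TPM at P6 and at 275, 238 and 189.7 TPM at P56, a log2 difference of −0.82 (adjusted *p* = 4.07e-05 from edgeR) that was −0.92 without P56 replicate 3. *Lama5* had a log2 difference of 0.24 (adjusted *p* = 0.110 from edgeR) and passed the test under 5 of 15 alternatives. Of 31 ligands and partners of *Cspg4*, 4 collagen and matrix genes were listed. Of these, 3 were called higher at P6, beside 30.3% of all tested genes called higher and 63.9% called in either direction. The 3 include *Col2a1*, whose level was very low. *Col6a3*, a chain of the type VI collagen that CSPG4 binds, was at 609 ± 17.6 TPM at P6 and 639 ± 132 TPM at P56 (SD, n = 3) and did not pass the test (log2 difference 0.07, adjusted *p* = 0.578 from edgeR). *Col5a2* and the matrix glycoprotein gene *Tnc* were higher at P6 by 0.50 and 0.60 (adjusted *p* = 0.000705 and 0.000297 from edgeR). *Col2a1*, the cartilage collagen, was at 2.28, 1.53 and 1.98 TPM at P6 and at 0.07, 0.03 and 0 TPM at P56, so its fitted fold is not given.

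**Figure D5:**
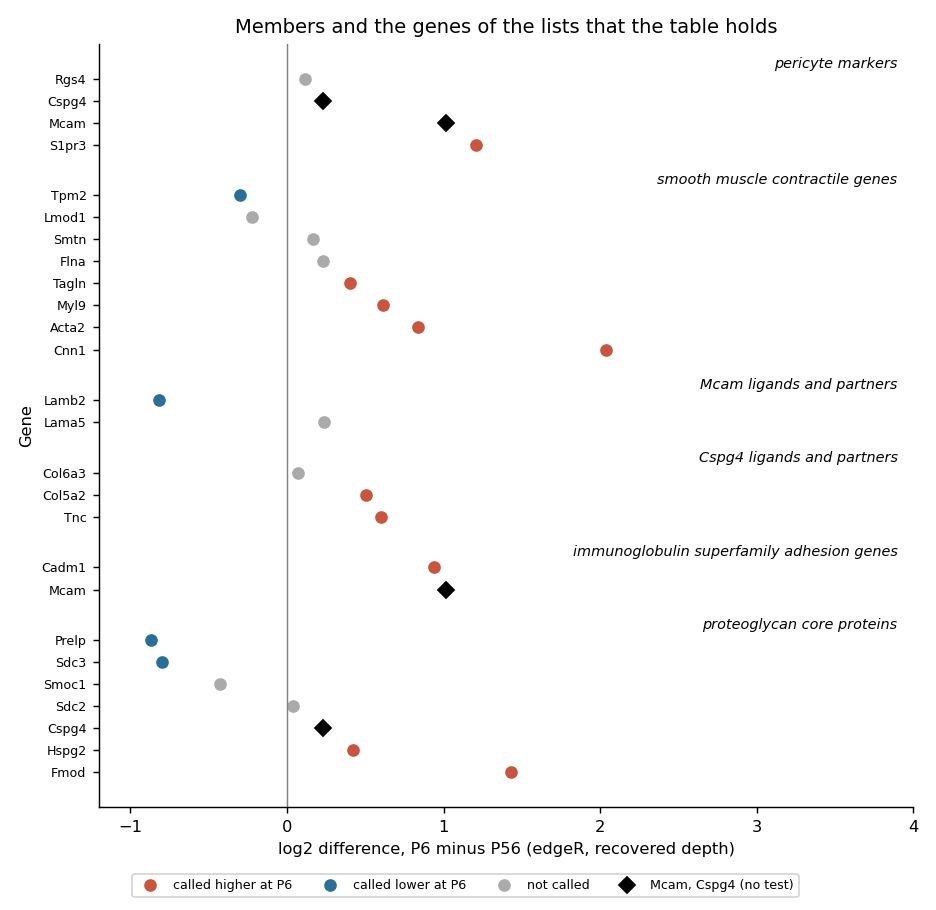
Log2 difference (P6 minus P56, edgeR at the recovered depth) of *Mcam* and *Cspg4* (diamonds, no test) and of the listed genes of 6 gene lists (circles, coloured by call), without *Col2a1*. *Mcam* at 1.01 lies near *S1pr3* at 1.20 and *Cadm1* at 0.94, and *Cspg4* at 0.23 lies near *Flna* at 0.23 and *Lama5* at 0.24.

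The genes whose levels followed those of the members most closely over the 6 libraries were different for each. By Pearson's r of log2(TPM + 1), *Mcam* was closest to *Aspm*, *Grhl1*, *Inhba*, *Cnn1* and *Col2a1*, with r between 0.975 and 0.984 (n = 6 libraries). All 5 were called higher at P6, beside 30.3% of all tested genes. Genes picked for following *Mcam* over both ages share its age difference, so these calls are not a separate result. The libraries share their ages, so these r values carry no test. *Aspm*, a gene of the mitotic spindle, was at 4.30 ± 0.171 TPM at P6 and 0.887 ± 0.0737 TPM at P56 (SD, n = 3). *Cspg4* was closest to *Lrrc39*, *Myl6*, *Pdk4*, *Bcar3* and *Smoc1*, with r between 0.717 and 0.796. None of these 5 genes was called, beside 63.9% of all tested genes called in either direction. These genes shared the high value in P56 replicate 3: *Smoc1*, which encodes a secreted calcium-binding matrix protein, was at 17.2, 32.3 and 58.3 TPM in P56 replicates 1 to 3, and *Lrrc39*, a gene of striated muscle, at 2.72, 3.57 and 6.44 TPM. Without P56 replicate 3, none of these 5 genes was still among the 5 closest to *Cspg4*, and 2 of those of *Mcam* were.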

How the data were processed

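Estimated read counts, TPM and FPKM of 312 genes in 6 libraries (3 per age) were analysed. According to the methods and labels, the authors sequenced poly(A) RNA on a BGISEQ-500 platform, aligned reads with HISAT and Bowtie2 and estimated expression with RSEM. Tool versions, genome build and the rule that chose the genes were not stated there. Among the estimated counts that the authors deposited, which are not normalized, 23 genes hold fractional values. The deposited TPM and FPKM were scaled by the authors over all genes of a library. The authors' deposited log2 ratio, p-value and q-value hold their own comparison of the ages and were not used.

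Samples were grouped by the age in their titles. After rounding, the 310 genes averaging 10 counts or more entered glmQLFTest of edgeR 4.0.16 (R 4.3.3, Benjamini-Hochberg adjustment, adjusted *p* under 0.05). As library size, each library had its median of count divided by FPKM, from genes above an FPKM of 5 in all 6. The fit was tested on simulated data. Standard errors of *Mcam* and *Cspg4* come from the log2 depth-scaled counts. The members and gene lists were chosen with earlier results of these data known. A gene of the contractile list is not reported here and was left out of that list. Named genes are the members, listed genes of the fixed lists and the 5 closest genes by Pearson's r. Alternatives were DESeq2 1.42.0, other library sizes, filters, limma 3.58.1 on log2(TPM + 1) and log2(TPM + 0.1), a replicate block and each library left out.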

Additional observations from a re-analysis of the deposited data

How the results depend on the processing

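The log2 difference of *Mcam* and of *Cspg4* kept its direction under all 15 alternatives. It moved by more than the spread between libraries with equal library sizes alone, to 1.39 for *Mcam* and 0.62 for *Cspg4*. With each library left out in turn, it was between 0.93 and 1.13 for *Mcam* and between 0.07 and 0.48 for *Cspg4*. The number of genes called was 198 (94 higher and 104 lower at P6) and stayed between 172 and 221 over the alternatives. Equal library sizes changed the split to 148 higher and 34 lower, and shared 128 calls with the recovered depth. The number of list genes called was 18, and between 15 and 23 over the alternatives. Among the contractile genes, the lower call of *Tpm2* was lost with equal library sizes, median-of-ratios size factors, listed totals with TMM, without P6 replicate 2 or 3 or without P56 replicate 2, and the higher calls were between 3 and 6. A replicate block gave 213 called genes, and the log2 differences were 1.02 for *Mcam* and 0.26 for *Cspg4*. The deviations of same-numbered libraries had correlations of 0.0967, 0.13 and 0.24, and as 1 was under 0.1 no pairing was assumed.

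The length index depended on the reference genes: with an FPKM above 20 its difference was −0.116% for *Mcam* and −0.0188% for *Cspg4*, and with an FPKM above 1 it was 2.26% and 2.36%. With a library left out it was between 0.0837% and 0.182% for *Mcam* and between 0.175% and 0.274% for *Cspg4*. Of the 5 genes closest to *Mcam*, 2 were kept by FPKM, by Spearman's rho and without P56 replicate 3, and of those closest to *Cspg4*, 0 were kept by Spearman's rho and without P56 replicate 3.

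Of 489 values of 33 other named genes, 434 kept their direction and side of the threshold, 26 passed it and 9 lost it (0 of them without P56 replicate 3), and 20 turned direction, none of which passed the test. With limma on log2(TPM + 1) and on log2(TPM + 0.1), the turned values were −0.00801 and −0.00813 for *Rgs4*, −0.0463 and −0.0464 for *Col6a3*, −0.0770 and −0.0779 for *Sdc2*, −0.16 and −0.18 for *Lrrc39*, −0.0141 and −0.0141 for *Myl6*, and −0.0287 and −0.0286 for *Pdk4*. With equal library sizes they were 0.0758 for *Tpm2* and 0.14 for *Lmod1*. With a library left out, the values ranged from −0.0624 to 0.16 for *Col6a3*, −0.0384 to 0.11 for *Sdc2* and −0.77 to 0.16 for *Smoc1*, turned without P56 replicate 3. They ranged from −0.11 to 0.35 for *Lrrc39* and −0.15 to 0.28 for *Pdk4*, turned without P56 replicate 1 and, for *Pdk4*, also without P6 replicate 2 (−0.0199). The causes were not tested.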

Other observations

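Of 24 genes of a proteoglycan list looked for, 6 besides *Cspg4* were listed and tested. Of these, 2 were higher, 2 were lower and 2 were not called. This is near the 63.9% called among all tested genes (30.3% higher and 33.5% lower). The list held *Smoc1*, which encodes a secreted calcium-binding matrix protein, so it is not one of proteoglycan core proteins alone. The median log2 difference of the 6 genes was −0.19, beside −0.02 over all tested genes. That median depends on *Smoc1*, at −0.43, while *Sdc2*, the other gene not called, was at 0.04. *Fmod* (fibromodulin) was at 45.9 ± 6.91 TPM at P6 and 18.5 ± 1.58 TPM at P56 (SD, n = 3). Its log2 difference was 1.43 (adjusted *p* = 1.30e-06 from edgeR). *Hspg2* (perlecan, of the vascular basement membrane) was higher at P6 by 0.42, and *Sdc3* (syndecan 3) and *Prelp* were lower at P6 by 0.80 and 0.87. Of 20 adhesion genes of the immunoglobulin superfamily, *Cadm1* was the gene listed besides *Mcam*. *Cadm1* was higher at P6 by 0.94 (adjusted *p* = 0.00156 from edgeR). Its level was low, at 3.55 ± 0.671 TPM at P6 and 2.02 ± 0.303 TPM at P56 (SD, n = 3).

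Markers of other cell types were few in the list. Of 25 endothelial genes, *Unc5b*, a netrin receptor, was listed, and it was higher at P6 by a log2 difference of 1.31 (adjusted *p* = 1.30e-06 from edgeR). Of 12 genes of the Schwann cell and oligodendrocyte lineage, 0 were listed, and of 15 cartilage genes, *Col2a1* was. Of 18 fibroblast and adipocyte progenitor genes, *Prelp* was listed, which was lower at P6 as given above. Of 17 skeletal muscle genes, *Acta1* and *Neb* were listed, and they were lower at P6 than at P56 by 1.64 and 1.73. Of all tested genes, 33.5% were called lower. *Neb* was at a low level, with means of 0.187 TPM at P6 and 0.683 TPM at P56. The part of such cells in the levels of *Mcam* and *Cspg4* was not tested.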
